A study of Mus musculus with 31 samples.

Results

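The genes described here encode the subunits of voltage-gated sodium and calcium channels. They were chosen by symbol from the platform's probe annotation: every probe with a single gene symbol of the Scn alpha and beta series (Scn followed by a number and a or b) or of the Cacna, Cacnb and Cacng series was taken. The rule found 29 genes on 38 probes, of 15096 named genes on the array. Of these, 16 encode pore-forming subunits (Cacna1 and Scn alpha genes) and 13 encode auxiliary subunits (Scn beta, alpha2delta, Cacnb and Cacng genes).

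The data are 2-colour glass arrays of whole-brain RNA from 31 BXD/TyJ recombinant inbred mouse strains, with 1 array for each strain. BXD strains were derived from crosses of C57BL/6J and DBA/2J mice, and each is inbred for its own mosaic of both parental genomes. Every array paired a strain, labelled with Alexa Fluor 647, with C57BL/6J whole brain, labelled with Alexa Fluor 555, from males at 8 weeks of age. For each strain the RNA of 3 mice was pooled, the reference also carried spike-in RNA, and the dyes were never swapped. The measurement is a log ratio per probe, taken as log2 because the base is not stated, and the direction, likely strain over C57BL/6J, is not settled by the labels. A mean over all strains can therefore hold a strain difference, a dye effect and the spread of the reference, which cannot be told apart. The 31 strains are the replicates of every mean below, and animal, hybridisation and strain differences are not separable with 1 pool and 1 array a strain. A log ratio carries no level, so no channel gene is ranked by abundance and no tissue marker can be checked for presence.

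A voltage-gated sodium or calcium channel is built around 1 large pore-forming alpha protein whose repeated domains hold a voltage sensor and line the pore. In the brain, sodium channels carry the rising phase of the action potential, whereas calcium channels turn depolarisation into transmitter release, calcium-dependent gene expression and burst firing. Auxiliary subunits change how many channels reach the membrane, where they sit and how they gate; several Cacng proteins act mainly on AMPA-type glutamate receptors.

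Before the channel genes, the arrays as a whole have to be described. All 31 columns held the same set of values, with a median of 0.01 and an SD of 0.60, and the lowest correlation between 2 arrays was 0.285. On a principal component analysis of all features, 7 arrays stood apart on the first component, which held 29.1% of the variance (BXD6, 8, 20, 23, 28, 36 and 38), and 8 stood apart on the second, which held 12.1% (BXD15, 22, 27, 33, 34, 39, 40 and 42). The other 16 arrays are called the core arrays below. These sets were seen in the data, and the labels name no batch; whether they are technical was not tested. Probes also differed with their place in the deposited table, since those at every eighth place had a mean log2 ratio of -0.506 over 2182 named probes, against -0.01 to 0.08 at the other places. Of the channel probes, 1 lies at such a place (Scn3b, its second probe). Marker lists of brain and neighbouring cell types fell on both sides of 0: of the genes measured, 3 of 9 were called above and 2 below 0 for neurons, 2 and 3 of 8 for astrocytes, 6 and 0 of 7 for oligodendrocytes, 2 and 3 of 7 for microglia, 6 and 1 of 7 for endothelium, 1 and 6 of 9 for skeletal muscle and 3 and 1 of 8 for pituitary. Of all features, 42.1% were called above 0 and 33.9% below. Their part in the channel results was not tested.

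Neighbouring genes on 1 chromosome segment share a parental allele in nearly every BXD strain, and 5 of the sodium channel alpha genes measured here lie close together on chromosome 2 in the order Scn3a, Scn2a, Scn1a, Scn9a and Scn7a. Their upstream sequences are shown because these are the linked genes whose log ratios over strains are set against each other further on. Each window is the 250 bases before a RefSeq transcript start, on the gene's strand, from the C57BL/6J reference assembly GRCm38.p6; the RefSeq table held windows for 22 of the 29 channel genes, and of this cluster Scn3a was without an entry. Capitals mark matches on either strand. The motifs searched were TATAAA (a core promoter element), CCAAT (an upstream promoter element), GGGCGG (bound by SP1), TTCAGCACC (the left part of the RE1 element, to which the neuronal repressor REST binds) and GGACAG (the right part of RE1).
Scn2a, first start, chr2:65620519-65620768, plus strand: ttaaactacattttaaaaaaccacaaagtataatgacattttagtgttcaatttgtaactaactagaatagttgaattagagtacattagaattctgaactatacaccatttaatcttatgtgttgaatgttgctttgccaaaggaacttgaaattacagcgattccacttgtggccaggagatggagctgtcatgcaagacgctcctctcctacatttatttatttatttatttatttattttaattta
Scn2a, second start, chr2:65668436-65668685, plus strand: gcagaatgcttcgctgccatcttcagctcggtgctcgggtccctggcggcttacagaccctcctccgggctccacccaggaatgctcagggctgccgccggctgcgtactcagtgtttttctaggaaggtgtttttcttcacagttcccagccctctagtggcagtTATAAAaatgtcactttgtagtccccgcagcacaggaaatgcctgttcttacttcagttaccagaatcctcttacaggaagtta
Scn1a, chr2:66440838-66441087, minus strand: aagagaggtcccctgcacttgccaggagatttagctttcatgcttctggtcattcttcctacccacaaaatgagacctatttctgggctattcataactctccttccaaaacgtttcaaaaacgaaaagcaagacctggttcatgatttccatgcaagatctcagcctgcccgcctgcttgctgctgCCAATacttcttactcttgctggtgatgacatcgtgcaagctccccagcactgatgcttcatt
Scn9a, chr2:66634963-66635212, minus strand: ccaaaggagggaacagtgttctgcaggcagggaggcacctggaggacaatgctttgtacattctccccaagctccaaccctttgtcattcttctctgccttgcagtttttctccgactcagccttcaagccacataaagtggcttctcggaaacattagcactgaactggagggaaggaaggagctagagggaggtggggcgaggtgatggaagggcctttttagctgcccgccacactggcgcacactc
Scn7a, chr2:66784911-66785160, minus strand: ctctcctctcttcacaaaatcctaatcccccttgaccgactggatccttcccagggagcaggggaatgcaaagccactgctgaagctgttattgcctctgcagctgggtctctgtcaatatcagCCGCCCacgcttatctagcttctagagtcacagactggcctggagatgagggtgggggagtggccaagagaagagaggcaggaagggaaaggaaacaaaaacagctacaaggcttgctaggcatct
Both Scn2a windows lie before starts of the same gene and differed in base composition: 29.6% of the bases of the first were G or C, with 2 CpG dinucleotides, against 53.2% and 9 in the second. Scn1a, Scn9a and Scn7a lay between 46.8% and 54.4% G or C, and the median of all 32851 windows was 52.4% with 6 CpG. A TATAAA match was found in the second Scn2a window, a CCAAT match in Scn1a and a GGGCGG match in Scn7a. None of the 5 motifs was found in the first Scn2a window or in Scn9a. Of all windows, 12.4% hold the first of these motifs, 33.8% the second, 32.7% the third, 0.301% the left part of RE1 and 18.7% the right part.

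The first comparison set the mean log2 ratio of each gene over the 31 strains against 0, with limma and Benjamini-Hochberg adjustment over all 21262 features at a threshold of 0.05. Of the 16 pore-forming genes, 10 passed, 5 above 0 and 5 below; of the 13 auxiliary genes, 13 passed, 9 above and 4 below. Over all features 76.1% passed, 42.1% above 0 and 33.9% below, so passing is the common state on these arrays and the channel counts have to be read against it. Tested against a change of 1.2-fold instead, 2 pore-forming and 4 auxiliary genes passed, where 27.9% of all features did, 12.4% above 0 and 15.6% below. On the 16 core arrays alone, 12 pore-forming genes passed (6 above 0 and 6 below) and 11 auxiliary genes (7 and 4), where 76.1% of all features did, 40.9% above and 35.2% below. With the 7 arrays of the first component removed, 9 pore-forming genes (5 and 4) and 13 auxiliary genes (9 and 4) passed, beside 79.4% of all features, 43.2% above and 36.1% below. The median of the gene means was 0.02 for pore-forming genes and 0.15 for auxiliary genes, beside 0.03 over all named genes.

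**Figure D1:**
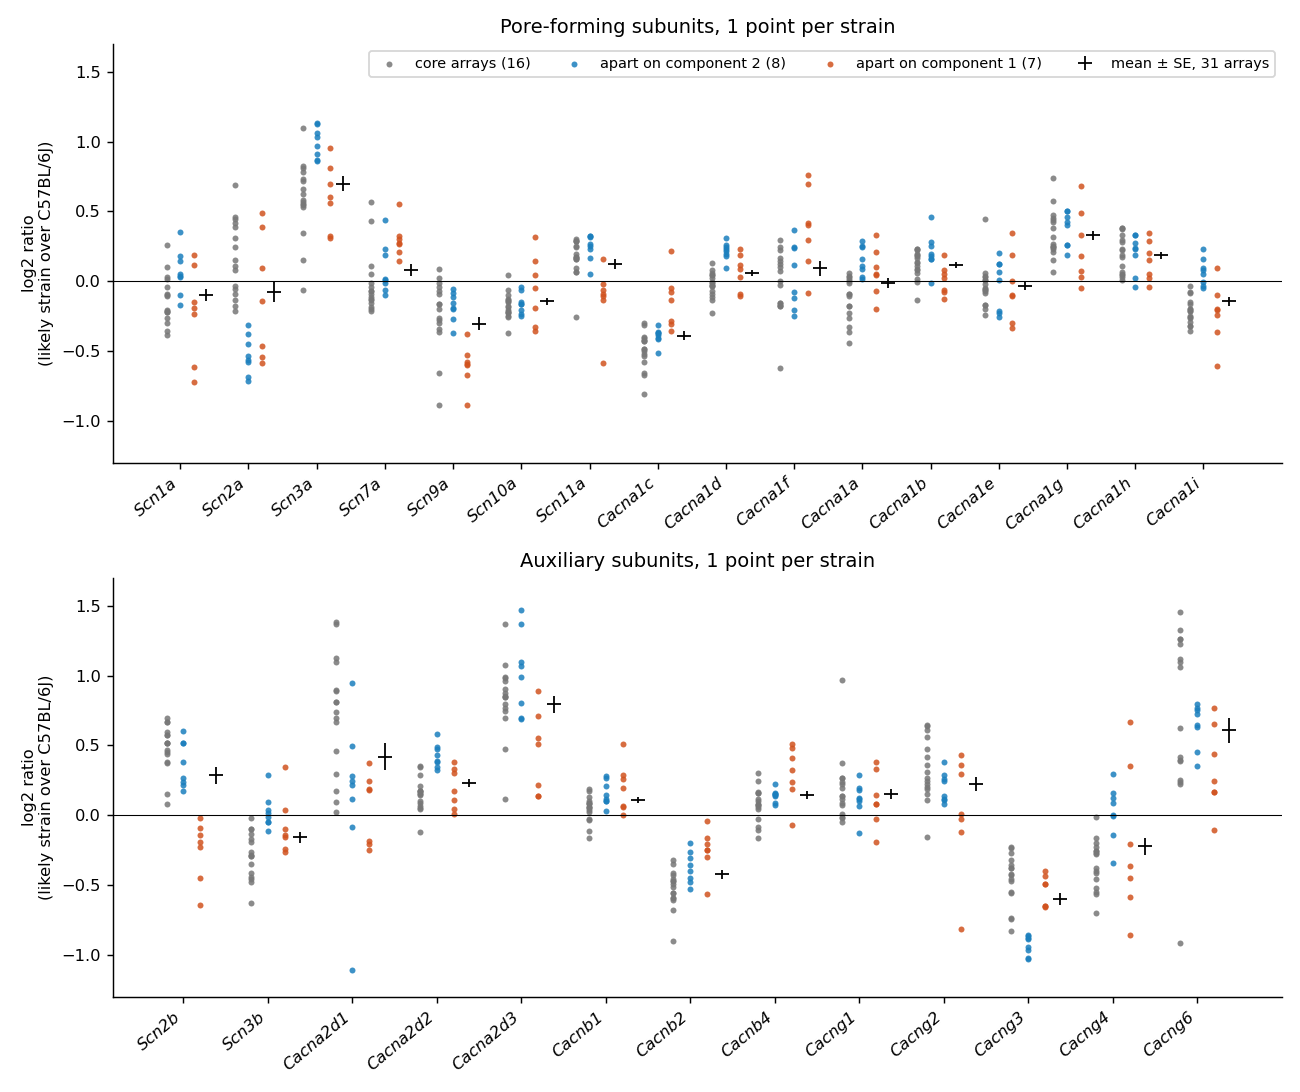
Log2 ratio (strain over C57BL/6J, likely direction) on the y axis for each channel gene on the x axis, with 1 point for each of the 31 strains, coloured by set of arrays, and a mark for the mean with its standard error. Pore-forming genes are drawn above and auxiliary genes below; Cacna2d3 lies above 0 and Cacnb2 and Cacng3 below 0 on all 31 arrays, while Scn2a spans 0 with its points between -0.71 and 0.69.

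Among the sodium channel alpha genes, 5 of 7 passed, 2 above 0 and 3 below. Scn3a, which encodes Nav1.3, a channel best known from the embryonic brain, had log2 ratios from -0.06 in BXD19 over a median of 0.72 to 1.14 in BXD27. It was above 0 on 30 arrays, and the 8 arrays apart on the second component, at 0.86 to 1.14, were all in the upper part of its range. Its mean was 0.70 ± 0.05 (SE, n = 31; limma adjusted p = 5.84e-14), the highest of the pore-forming genes and 1 of the 2 that passed the 1.2-fold test.

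Scn9a, which encodes Nav1.7, a channel of peripheral sensory neurons and some hypothalamic cells, lay at -0.89 in BXD20, -0.27 at the median and 0.09 in BXD16. The 7 arrays apart on the first component lay at -0.89 to -0.38, and 29 of the 31 arrays were below 0. The mean was -0.30 ± 0.05 (SE, n = 31; limma adjusted p = 5.48e-07).

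Scn1a and Scn2a encode Nav1.1 and Nav1.2, the main sodium channels of inhibitory interneurons and of excitatory axons in early life. Scn1a ranged from -0.72 in BXD8 over a median of -0.10 to 0.35 in BXD27, with 19 arrays below 0. Its mean of -0.10 ± 0.04 (SE, n = 31) passed with a limma adjusted p of 0.0319, and the call was lost without BXD8, BXD12, BXD18 or BXD36, with adjusted p of 0.0611, 0.0537, 0.0523 and 0.0600. It was also lost with the 7 arrays of the first component removed, at -0.07 (adjusted p = 0.134). Scn2a ranged from -0.71 in BXD33 over a median of -0.10 to 0.69 in BXD31, with 13 arrays above 0. Its mean of -0.08 ± 0.07 did not pass (adjusted p = 0.32), and its SD of 0.41 was the largest of the pore-forming genes. The sets of arrays differed in sign for Scn2a: the 8 arrays apart on the second component lay at -0.71 to -0.32, whereas the 16 core arrays lay at -0.22 to 0.69 with a mean of 0.16, and the 7 apart on the first component spanned both at -0.58 to 0.49.

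Scn10a and Scn11a encode Nav1.8 and Nav1.9, channels of pain-sensing neurons. Scn10a had a median of -0.16, with 27 arrays below 0 and an average of -0.14 ± 0.03 (SE over 31 strains; limma adjusted p = 3.06e-05). Scn11a had a median of 0.17, with 24 arrays above 0 and a mean of 0.12 ± 0.04 (adjusted p = 0.00392). With the median of each place in the table subtracted it did not pass, at 0.03 (adjusted p = 0.482). BXD36 was the extreme array for both, at 0.32 for Scn10a, the highest, and -0.59 for Scn11a, the lowest. Scn7a, which encodes the atypical sodium-sensing channel Nax, had a mean of 0.08 ± 0.04 from 2 probes and did not pass (adjusted p = 0.0694).

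Of the Cav1 genes, which encode L-type channels coupled to gene expression and pacemaking, 1 of 3 passed. Cacna1c, the Cav1.2 gene, ranged from -0.81 in BXD16 over a median of -0.41 to 0.22 in BXD36. BXD36 was the only array above 0, and the 16 core arrays lay at -0.81 to -0.30. The mean was -0.39 ± 0.03 (SE, n = 31; limma adjusted p = 1.86e-11), the lowest of the pore-forming genes and the other one past 1.2-fold. Cacna1d, the Cav1.3 gene, had a mean of 0.06 ± 0.02 (adjusted p = 0.0505), which passed when any 1 of 11 strains was left out, at a mean of 0.06 to 0.07. Cacna1f, the Cav1.4 gene known from photoreceptors, had log2 ratios from -0.62 in BXD18 to 0.76 in BXD28 and a mean of 0.09 ± 0.05 (adjusted p = 0.0988).

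Among the Cav2 genes, which encode the presynaptic channels of transmitter release, 1 of 3 passed. Cacna1b, the N-type channel Cav2.2, was above 0 on 25 arrays, from -0.14 in BXD29 to 0.46 in BXD22, and the mean was 0.12 ± 0.02 (SE, n = 31; limma adjusted p = 0.000173). With place medians subtracted the value was 0.04 and did not pass (adjusted p = 0.145), whereas Cacna1e then passed at -0.11 (adjusted p = 0.00339). The P/Q-type gene Cacna1a had a mean of -0.02 ± 0.03 (adjusted p = 0.709) and the R-type gene Cacna1e a mean of -0.03 ± 0.03 (adjusted p = 0.393). The Cacna1a value is an average of 2 probes of opposite sign, given below.

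All 3 Cav3 genes passed; these encode the low-voltage-activated T-type channels of burst firing and thalamic rhythms. Cacna1g, the Cav3.1 gene, ranged from -0.05 in BXD20 over a median of 0.32 to 0.74 in BXD32. BXD20 was its only array below 0, and its mean was 0.33 ± 0.03 (SE, n = 31; limma adjusted p = 3.39e-10). Cacna1h, the Cav3.2 gene, had a mean of 0.19 ± 0.02 from 2 probes of opposite sign. Cacna1i, the Cav3.3 gene, was below 0 on 25 arrays, from -0.61 in BXD36 over a median of -0.20 to 0.23 in BXD27, with a mean of -0.15 ± 0.03 (adjusted p = 0.000259). The core arrays were all below 0, at -0.36 to -0.03, while the 8 apart on the second component lay at -0.05 to 0.23.

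The sodium channel beta subunits are single-span adhesion-like proteins that set gating and membrane density. Scn2b ranged from -0.65 in BXD6 over a median of 0.38 to 0.70 in BXD24. The 7 arrays apart on the first component lay at -0.65 to -0.02 and the other 24 at 0.08 to 0.70, so the groups of arrays did not overlap. Cacnb4 separated these arrays at its probe 4, given below, but not as a gene average. With probes averaged Scn2b was the only such channel gene, and 5.01% of all features behaved likewise. Its mean over all strains was 0.28 ± 0.06 (SE, n = 31; limma adjusted p = 8.78e-05), and 74.4% of its variance lay between the sets of arrays. Scn3b ranged from -0.63 in BXD16 over a median of -0.14 to 0.35 in BXD38, with a mean of -0.16 ± 0.04 (adjusted p = 0.000501). That mean joins a first probe above 0 with a second probe at an eighth place below 0, and without the latter the gene is at 0.13. With place medians subtracted the mean was 0.00 (adjusted p = 0.992).

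All 3 alpha2delta genes were called above 0. These subunits raise the number of calcium channels at the membrane, and the products of Cacna2d1 and Cacna2d2 bind gabapentin. Cacna2d3 ranged from 0.11 in BXD5 over a median of 0.85 to 1.47 in BXD33 and was above 0 on all 31 arrays. The 7 arrays apart on the first component were lower, at 0.14 to 0.89, and overlapped the rest. Its mean of 0.80 ± 0.06 (SE, n = 31; limma adjusted p = 1.15e-13) was the highest of all 29 channel genes. Cacna2d2 was above 0 on 30 arrays with a mean of 0.23 ± 0.03 (adjusted p = 7.46e-08).

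Cacna2d1 ranged from -1.11 in BXD22 over a median of 0.29 to 1.38 in BXD31. The 16 core arrays were all above 0, at 0.02 to 1.38, whereas both other sets spanned 0. Its mean was 0.42 ± 0.10 (SE, n = 31; limma adjusted p = 0.000126) and its SD of 0.53 was the largest of the channel genes, at the percentile of 94.3 among named genes. Leaving out any 1 strain kept the mean between 0.39 and 0.47.

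The Cacnb genes encode intracellular beta subunits that carry high-voltage-activated calcium channels to the membrane. Cacnb2 was below 0 on all 31 arrays, from -0.90 in BXD32 over a median of -0.45 to -0.04 in BXD28, and the mean was -0.43 ± 0.03 (SE, n = 31; limma adjusted p = 2.88e-13). The core arrays lay lowest, at -0.90 to -0.32, and the 7 apart on the first component reached highest. Cacnb1 was above 0 on 27 arrays with a mean of 0.11 ± 0.02 (adjusted p = 0.000463). Cacnb4, the gene mutated in the lethargic mouse, was above 0 on 26 arrays averaging 0.14 ± 0.03 (adjusted p = 8.93e-05) that averages 4 probes. Over the 16 core arrays alone neither Cacnb1, at 0.05 (adjusted p = 0.15), nor Cacnb4, at 0.07 (adjusted p = 0.056), passed.

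Of the 5 Cacng genes, 3 were called above 0 and 2 below. Cacng2 (stargazin), Cacng3 and Cacng4 encode TARPs, which bring AMPA receptors to synapses, and Cacng1 and Cacng6 encode gamma subunits best known from striated muscle. Cacng3 was below 0 on all 31 arrays, from -1.03 in BXD27 over a median of -0.55 to -0.23 in BXD32. The 8 arrays apart on the second component lay at -1.03 to -0.86 and the other 23 at -0.83 to -0.23, without overlap, as in 0.804% of all features and in no other channel gene. Its mean of -0.60 ± 0.04 (SE, n = 31; limma adjusted p = 7.05e-14) was the lowest of the 29. Cacng4 ranged from -0.86 in BXD28 over a median of -0.26 to 0.67 in BXD20, with a mean of -0.22 ± 0.06 (adjusted p = 0.000781); the 16 core arrays were all below 0 at -0.70 to -0.02, and both other sets spanned 0.

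Cacng6 ranged from -0.92 in BXD2 over a median of 0.63 to 1.45 in BXD19. Both of those extremes were core arrays, and 29 of 31 arrays were above 0. The mean was 0.61 ± 0.09 (SE, n = 31; limma adjusted p = 1.09e-07), and its SD of 0.49 stood at the percentile of 92.0 among named genes. Cacng2 was above 0 on 27 arrays, from -0.82 in BXD36 over a median of 0.25 to 0.64 in BXD16, with a mean of 0.22 ± 0.05 (adjusted p = 0.000145). Cacng1 was above 0 on 25 arrays with a mean of 0.15 ± 0.04 (adjusted p = 0.000485), and its highest value, 0.97, was that of BXD31.

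Cacna2d3, Cacnb2 and Cacng3 were the only 3 of 29 channel genes with 1 sign on every array. That count is near the 10.2% of all features that had it, so it is not read as a trait of channel genes. All 3 are auxiliary, and the classes were not tested against each other. They also passed the 1.2-fold test, beside Cacng6 among the auxiliary genes.

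Next, the probes of genes measured more than once were compared. Of the 29 genes, 7 had several probes, 16 in all. In 6 of them 1 probe passed above 0 and another below it when spots were fitted singly. In that fit 76.2% of all spots passed, 42.0% above 0 and 34.3% below. How many of all genes with several probes had calls in both directions was not counted, so the 6 are not read as particular to channel genes. For those 6 the gene mean is an average of probes of opposite sign, and the sequences of the probes were not used here.

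**Figure D2:**
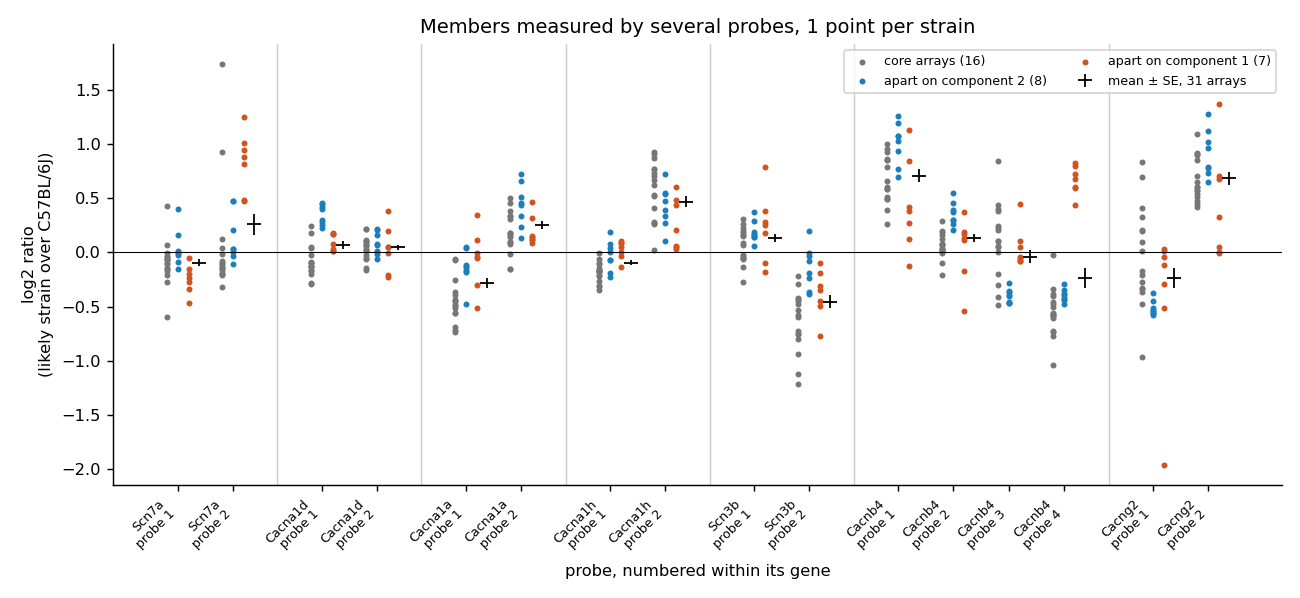
Log2 ratio (y axis) of each probe (x axis) of the 7 channel genes with more than 1 probe, with 1 point a strain coloured by set of arrays and a mark for the mean with its standard error. The means of probes of 1 gene sit on opposite sides of 0 in Cacna1a, Cacna1h and Cacng2, and probe 4 of Cacnb4 is above 0 on the 7 arrays apart on the first component and below 0 on all others.

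The first Cacna1a probe had a mean of -0.28 (adjusted p = 3.14e-06, limma on single spots, n = 31) and the second of 0.25 (adjusted p = 5.47e-07). On the core arrays the first was below 0 throughout, at -0.73 to -0.06, and the second was mostly above, at -0.15 to 0.50. The Cacna1h probes had means of -0.10 (adjusted p = 0.00222) and 0.47 (adjusted p = 1.52e-10), the second above 0 on all 31 arrays. The Cacng2 probes had means of -0.24 (adjusted p = 0.0161) and 0.69 (adjusted p = 2.25e-12), and the low BXD36 value of that gene came from the first, at -1.96.

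Cacnb4 showed the widest disagreement, with probe means of 0.71 (limma on single spots, n = 31, adjusted p = 1.15e-12), 0.13, -0.04 and -0.23 (adjusted p = 0.0201). Its first probe was above 0 on 30 of 31 arrays. Probe 4 lay at 0.44 to 0.82 on the 7 arrays apart on the first component and at -1.04 to -0.02 on the other 24. The share of all spots that separate these arrays was not counted. In Scn7a the first probe had a mean of -0.09 (adjusted p = 0.0248) and the second of 0.26 (adjusted p = 0.00974). The second was at 0.48 to 1.25 on those same 7 arrays and at 1.74 in BXD5, a core array, where the first probe was at its lowest, -0.59.

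The Scn3b probes had means of 0.13 (limma on single spots, n = 31, adjusted p = 0.00179) and -0.45 (adjusted p = 1.39e-08), the latter at the eighth place. The Cacna1d probes, with means of 0.07 and 0.05, were both above 0 on average. Over strains, centred on the mean of each set of arrays, the 12 pairs of probes of 1 gene correlated at Pearson's r between -0.388 and 0.269 with a median of 0.102. None passed a permutation test of strains within sets after adjustment over 25 pairs, so no agreement between probes of 1 gene in the order of the strains was detectable with these arrays.

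Variation over strains was then described. The SD over strains had a median of 0.19 for pore-forming and 0.25 for auxiliary genes, beside 0.27 over named genes, and 9 of the 29 were above the median of named genes. Centred on the mean of each set of arrays, the median SD was 0.17 and 0.18, beside 0.21 over named genes. A median of 35.7% of the variance of a channel gene lay between the sets of arrays, where it was 33.9% over named genes, and 6 of 29 channel genes had over 50% there, as did 4255 of the 15096 named genes. The largest SDs among pore-forming genes were those of Scn2a at 0.41, Scn3a at 0.29, Cacna1f at 0.29 and Scn9a at 0.26. Among auxiliary genes they were those of Cacna2d1 at 0.53, Cacng6 at 0.49, Scn2b at 0.35 and Cacna2d3 at 0.34. Cacna1b, at 0.13, had the smallest.

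**Figure D3:**
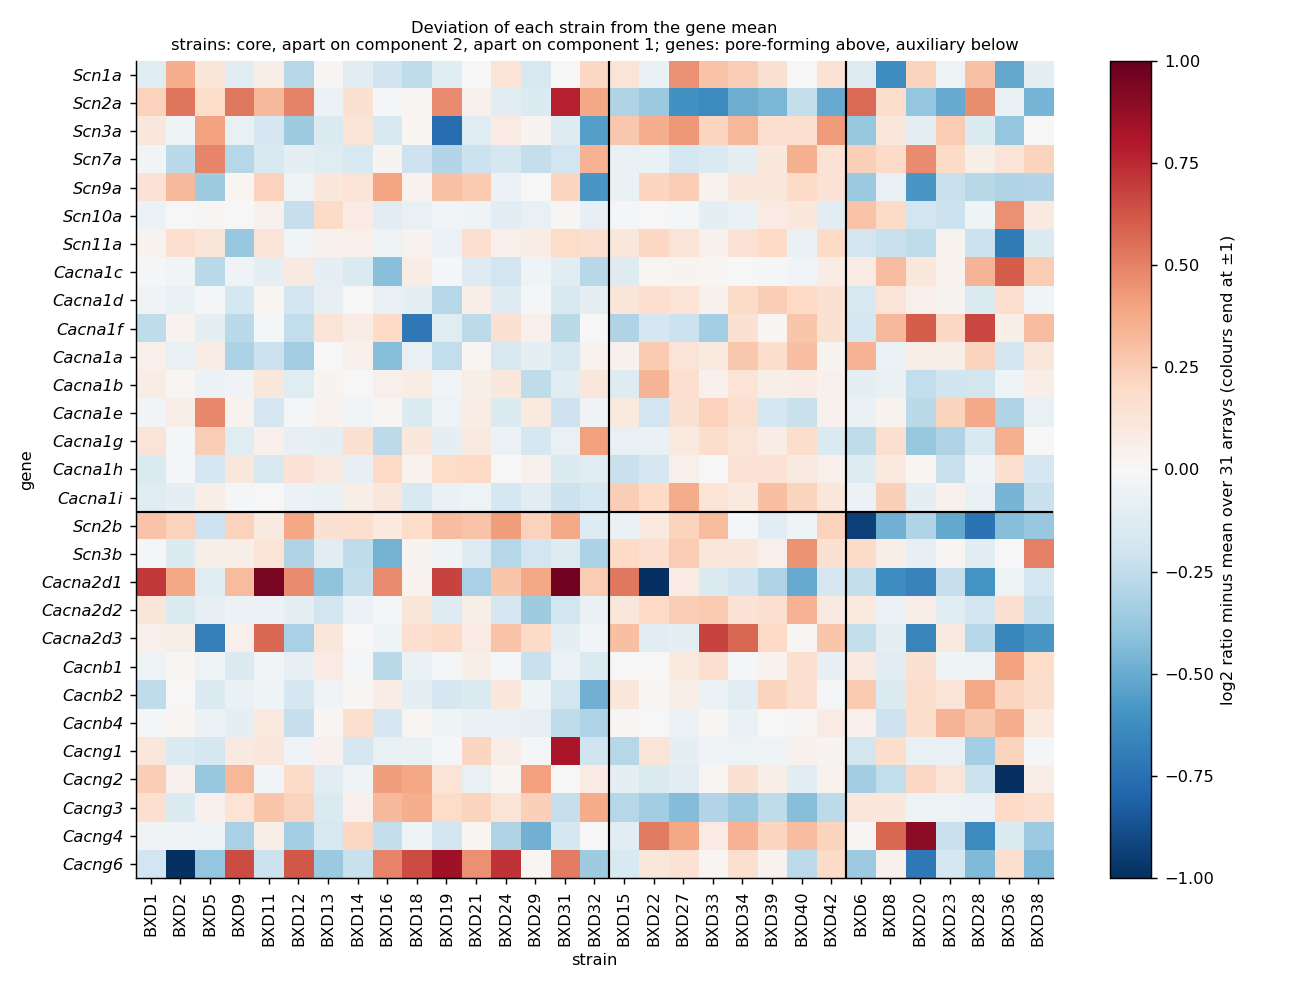
Log2 ratio of the 29 channel genes (rows, by family) in the 31 strains (columns, by set of arrays), less each gene's mean over strains, on a colour scale centred on 0 that ends at -1 and 1. Scn2b is below its mean in the 7 arrays apart on the first component, and Scn2a and Cacng3 are below theirs in the 8 apart on the second.

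By strain, the median of the 16 pore-forming genes ran from -0.15 in BXD9 to 0.20 in BXD34. That of the 13 auxiliary genes ran from -0.04 in BXD28 to 0.26 in BXD1. The median of all named genes stayed at 0.01 to 0.02, but all columns held the same set of values, so it could hardly move. It therefore does not show how far a median of 13 or 16 genes varies between arrays. The spread of such medians for other sets of genes was not counted, and no class difference is read from these ranges. BXD36 held the highest or lowest value of 8 channel genes, 27.6% of them, and of 16.2% of named genes; 4 were highest values and 4 lowest. BXD16 held 7, or 24.1%, where it held 9.2% over named genes.

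The design names no treatment, and the only division of strains in the labels is the strain number: BXD33 to BXD42 (7 strains) come from a later inbreeding effort than BXD1 to BXD32 (24 strains). No channel gene passed between these sets in limma with adjustment over all features, where 0.48% of features passed. Before adjustment 7 channel genes had a p under 0.05. The share of all features with such a p in this fit was not counted, so the 7 are not read as particular to channel genes. Scn2a came nearest: the later strains lay at a mean of -0.49 and the earlier at 0.04, a difference of -0.53 (95% interval -0.82 to -0.23, adjusted p = 0.0649). It passed when BXD15, BXD20, BXD22, BXD23, BXD27 or BXD36 was left out, with adjusted p between 0.0297 and 0.0498. None of the 7 later strains is a core array, as 2 belong to those apart on the first component and 5 to those apart on the second. With the set of arrays as a block the Scn2a difference was -0.16 (95% interval -0.48 to 0.16, adjusted p = 0.924).

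**Figure D4:**
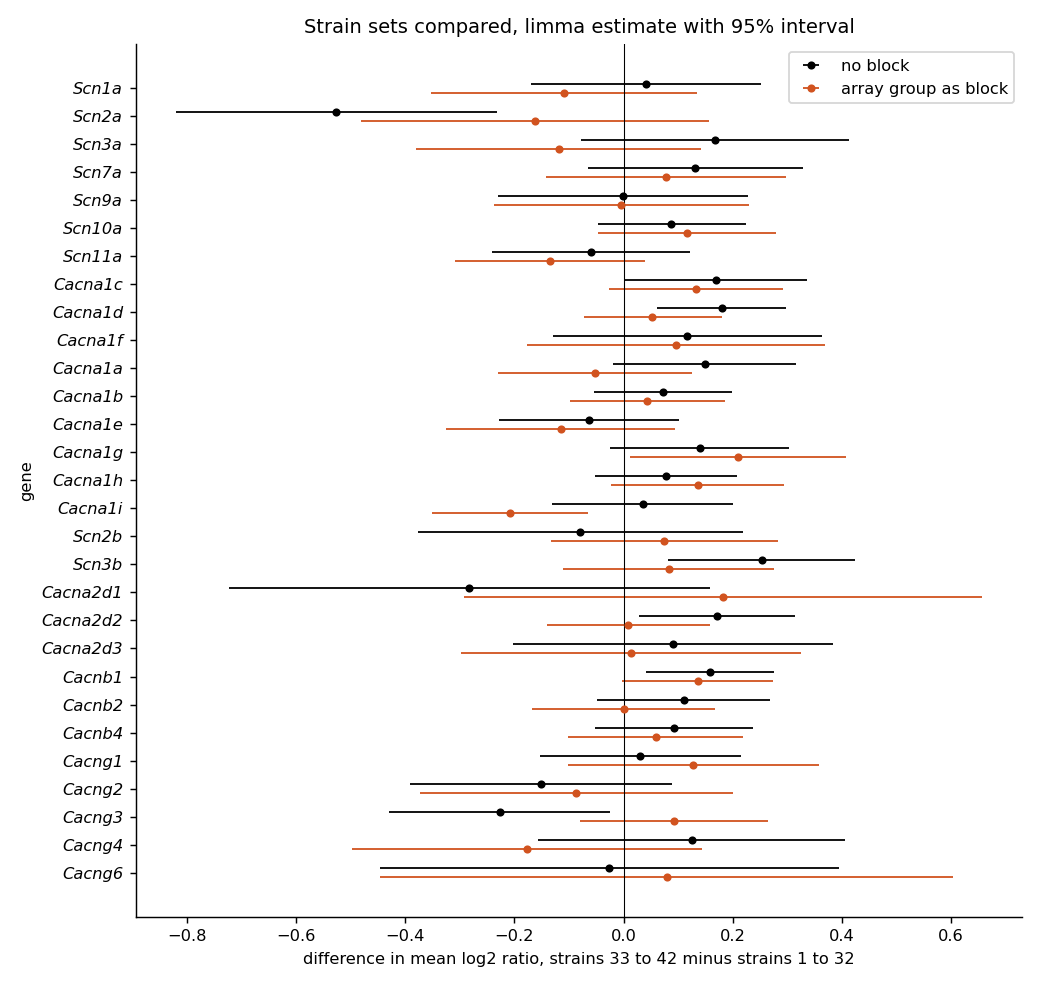
Difference in mean log2 ratio between BXD33 to BXD42 (7 strains) and BXD1 to BXD32 (24 strains) for each channel gene, with its 95% interval, without a block and with the set of arrays as a block. The Scn2a difference moves from -0.53 to -0.16 under the block, and no gene passes after adjustment in either fit.

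The next smallest p-values were those of Cacna1d, 0.18 higher in the later strains (limma adjusted p = 0.0967), and of Scn3b, 0.25 higher (adjusted p = 0.104). With the block the difference was 0.05 for Cacna1d (limma adjusted p = 0.941) and 0.08 for Scn3b (adjusted p = 0.941). Under the block 0 of all features passed, the smallest adjusted p of a channel gene was 0.497, and 2 channel genes had an unadjusted p under 0.05: Cacna1g at 0.21 and Cacna1i at -0.21. Over all features 7.29% had such a p under the block. With the 7 arrays apart on the first component left out, 5 genes passed: Scn2a at -0.60, Cacna1d at 0.21, Cacna1a at 0.25, Cacna2d2 at 0.24 and Cacng3 at -0.38. In that fit 15.9% of all features passed, and the 5 later strains that remained were all arrays apart on the second component, beside 3 earlier strains of that set. Within that set the 3 earlier and 5 later strains overlapped in all 5 genes, as they did in every channel gene. With so few arrays overlap is the usual outcome unless strain sets differ widely, so it does not decide whether these 5 genes differ. The share of all features that overlap there was not counted. For Scn2a the earlier lay at -0.69 to -0.38 and the later at -0.71 to -0.32. For Cacng3 the earlier lay at -1.03 to -0.88 and the later at -1.02 to -0.86. With the set of arrays as a block the Cacng3 difference was 0.09 (adjusted p = 0.915).

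Whether channel genes moved together over strains was described by Pearson's r after centring each gene on the mean of each set of arrays. The mean r was 0.016 over pairs of pore-forming genes and 0.028 over pairs of auxiliary genes. Their SEs, from leaving out 1 strain at a time (jackknife), were 0.020 and 0.031. Over all pairs of channel genes the mean r was -0.007, beside 0.001 over pairs of all named genes. Of the 406 pairs of channel genes, 199 were above 0. The highest was Cacnb2 with Cacnb4, at 0.530, and 7 pairs were below -0.5, down to -0.720 for Scn10a with Cacng2. In that lowest pair BXD36 held both the highest Scn10a value, 0.32, and the lowest Cacng2 value, -0.82. The latter came from the first Cacng2 probe, and r without BXD36 was not computed. These coefficients share arrays and normalisation and are given with no test.

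For the neighbours, 13 pairs lay within 10 genes of each other: the 10 pairs of the chromosome 2 cluster, Scn10a with Scn11a, Cacng1 with Cacng4 and Cacna2d3 with Cacna1d. Their r over the 31 strains ran from -0.592 to 0.162, with a median of -0.029. Scn9a and Scn7a, adjacent genes whose windows are printed above, gave -0.592 (permutation p = 0.00384, two-sided, adjusted p = 0.096 over 25 pairs) and Spearman's rho of -0.317 (permutation p = 0.154, adjusted p = 0.954). Without the 2 strains farthest out in Scn9a, BXD5 and BXD32, r was -0.160, so the pooled value depends strongly on these 2 core arrays. Scn7a is the average of 2 probes, which lay at -0.595 and 1.737 in BXD5. Within the sets of arrays r was -0.718 on the 16 core arrays and 0.201 on the 8 apart on the second component. It was -0.722 on the 7 apart on the first component, which hold neither BXD5 nor BXD32. Scn3a and Scn2a, also adjacent, gave -0.420 (permutation p = 0.0337, adjusted p = 0.421), with rho at -0.376 (permutation p = 0.0872, adjusted p = 0.954). Without 2 strains r was -0.444 for this pair. Within the sets r was -0.388 on the core arrays, -0.537 on those apart on the first component and -0.386 on those apart on the second. None of the 13 passed after adjustment, so no linked pair of channel genes was shown to vary jointly.

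Finally, genes whose products bind or regulate the channels were counted. Of 14 measured partners of sodium channels, such as intracellular FGF homologues, ankyrin G and ubiquitin ligases, 8 were called above 0 and 5 below, with 1 not passing; the list's median was 0.13. The highest was Calm2, a calmodulin gene, at 0.47 ± 0.08 (SE, n = 31; limma adjusted p = 1.51e-06), and the lowest was Nedd4l, a ubiquitin ligase, at -0.77 ± 0.10 (adjusted p = 7.91e-09), both measured at an eighth place. Of 25 measured partners of calcium channels, such as active zone proteins, SNAREs, RGK proteins and ryanodine receptors, 13 were called above 0 and 9 below, with 3 not passing and a median of 0.11. Both lists stand beside 42.1% of all features above 0 and 33.9% below. Syt1, the synaptotagmin that senses calcium in release, was highest at 0.59 ± 0.12 (adjusted p = 2.97e-05), and Unc13a, a vesicle priming factor, was lowest at -0.62 ± 0.07 (adjusted p = 1.84e-09), at an eighth place. No partner passed between the strain sets.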

How the data were processed

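The deposited table holds the authors' log2 ratios (taken as log2; base not stated) of 23040 spots on 31 arrays, with 0 missing values; sorted columns were identical, as quantile normalisation between arrays leaves them. R 2.0.0 and limma are named, with no role, per the submitters' processing notes; background correction and other steps: not given in the sources used here. No array intensities or depth were used, so the number of arrays limits the precision.

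Probes were named through the platform annotation (16874 with 1 symbol, 134 with several, 6032 with none), and probes of 1 symbol were averaged, giving 21262 features. Means were tested against 0, strain sets against each other and means against a 1.2-fold change (treat) with limma 3.58.1 in R 4.3.3, adjusted by Benjamini-Hochberg over all features, and the fits were tested on simulated data; permutations (100000) used Python 3.11.15 and scipy 1.17.1. Genes, entered through Entrez IDs, and sequences were matched to RefSeq (GRCm38.p6). Alternatives were a robust fit, place medians subtracted, eighth-place probes left out, first probe only, array sets left out or as a block, single spots, and each strain left out. Members and lists were chosen with earlier results of these data known. Values were given in full for the 4 highest and 4 lowest called means and the 4 largest SDs of each class. They were also given for the 3 smallest strain-set p-values over all channel genes, every gene with several probes and neighbouring pairs. The highest and lowest called gene of each partner list was treated likewise, and the rest is given shortly.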

Additional observations from a re-analysis of the deposited data

Results flagged for a closer look

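BXD36 stood away from the other 6 strains of BXD33 to BXD42 in 5 channel genes, by a gap that was large against the range of the 7. Its log2 ratio was the highest for Scn10a at 0.32, Cacnb4 at 0.51 and Cacng1 at 0.38, and the lowest for Scn11a at -0.59 and Cacng2 at -0.82. With 29 genes examined, chance flags about 1 in 20 such groups, if the values in a group are alike and independent. That rate does not apply here, because all 5 flags come from BXD36 and the 7 strains belong to different sets of arrays. The share of all features flagged by this rule was not counted, so the 5 are not read as particular to channel genes. Only BXD36 and BXD38 of these 7 strains are arrays apart on the first component. BXD36 also held the extreme value over all 31 strains of 8 channel genes, against 16.2% of named genes.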

How the results depend on the processing

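Leaving out eighth-place probes turned Scn3b to 0.13. Taking the first probe alone also gave Scn3b 0.13, and turned Scn7a to -0.09, Cacna1h to -0.10 and Cacng2 to -0.24. The core arrays alone gave Scn2a a mean of 0.16. Against 1.2-fold, 2 pore-forming and 4 auxiliary genes passed, beside 27.9% of all features. With the 7 arrays of the first component removed, 3 pore-forming and 2 auxiliary genes differed between the strain sets, beside 15.9% of all features. With 1 strain left out, 0 to 1 pore-forming genes did so, the 1 being Scn2a. With place medians subtracted, 3 pore-forming genes were called above 0 and 6 below. In that fit 9 auxiliary genes were called above 0 and 3 below, and the share of all features called was not counted. Calls kept there at means moved by over 1.5 times were Scn1a at -0.19, Cacna1h at 0.12, Cacnb1 at 0.06, Cacnb4 at 0.09 and Cacng2 at 0.14; on the core arrays they were Cacna2d1 at 0.72, Cacna2d2 at 0.15, Cacng4 at -0.35, Scn2b at 0.48 and Scn3b at -0.29, and Cacna1a passed at -0.13. With the first component's arrays removed, Scn11a was at 0.19 and Scn2b at 0.44. The mean pairwise r of pore-forming genes was 0.037 on the core arrays, 0.070 on those apart on the second component and -0.017 on those apart on the first; that of auxiliary genes was 0.065 on the core and -0.033 on the second. Leaving out 1 strain gave 0.008 to 0.029 and 0.014 to 0.043. No paired analysis was possible because strain numbers do not repeat between the strain sets.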
